A study of Homo sapiens with 3 samples.

Results

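The genes of the p53 pathway described here are 31 genes: MDM2, MDM4 and PPM1D, which restrain p53, and 28 genes that p53 is known to activate. Each gene was read from probe sets annotated to it alone, and the brightest by mean log2 value stood for the gene. Of the 31 genes, 29 had such a probe set and 27 reached the level required for testing, out of 12779 genes tested in all. TP53I11 and SPATA18 stayed below that level, and BTG2 and FDXR were not analysed here.

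The cells, GFP-SAS, derive from SAS, an established tongue carcinoma line of human origin. They were treated with a small interfering RNA (siRNA), a double-stranded RNA that guides the cutting of a matching mRNA, at 10 nM for 24 h. Of the 3 libraries, 1 was treated with siAkt1-22 and 1 with siAkt1-58, which both target the kinase gene AKT1, and 1 with the non-targeting control siNT. RNA was read on Affymetrix arrays, and with so few arrays the precision of each value is limited. Levels are log2 expression values and differences are log2 differences from the siNT library. An untreated culture is not among these libraries, so all 3 share exposure to an siRNA.

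The transcription factor p53 is held at low levels by the ubiquitin ligase MDM2 and its relative MDM4. DNA damage and other stresses release it, and it then activates genes that stop the cell cycle, repair DNA, limit growth signals or promote cell death. MDM2 is itself a p53 target, which closes a negative feedback loop, and AKT kinases are known to phosphorylate MDM2 protein. Arrays measure mRNA and not p53 protein or its activity, and in a bulk culture fewer cells with an mRNA and less of it per cell cannot be told apart.

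AKT1, the target of both siRNAs, had 3 probe sets. The brightest read 3.67 with siAkt1-22 and 3.47 with siAkt1-58, against 6.75 with siNT, and both siAkt1 values were under the filter level (3.93). Another read 4.07 with siAkt1-22 and 4.02 with siAkt1-58, against 5.31 with siNT, a smaller difference of -1.23 and -1.29. The dimmest read 3.47 in all 3 libraries. The fold for AKT1 thus depended on the probe set. In the siAkt1-22 library the 24 probe sets for spiked poly-A RNA had a median difference of -0.56, against -0.01 with siAkt1-58. The 17 interferon-stimulated genes tested had medians of 1.24 with siAkt1-22 and 0.12 with siAkt1-58. Of the 17, IRF9, a subunit of the interferon-activated factor ISGF3, and OAS1, an oligoadenylate synthetase, were at least 2-fold higher with both siRNAs (0.736% of all genes). IRF9 differed from siNT by 3.20 with siAkt1-22 and 1.08 with siAkt1-58, and OAS1 by 1.68 and 1.52. The part of the spiked RNA and of the interferon-stimulated genes in the values below was not tested. Of 11 squamous epithelial markers, KRT5, DSG3, SFN, CDH1 and EPCAM were tested, with levels from 6.26 to 11.67, while KRT14, KRT13 and DSC3 lay below the filter level in every library. Of 14 stromal, endothelial and blood cell markers, 4 passed the filter. PECAM1, VWF and HBB each gave 1 identical value across the libraries, and CD68, a lysosomal protein used as a macrophage marker, read 6.75 with siAkt1-22 and 7.14 with siAkt1-58, against 6.33 with siNT.

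No gene in either direction passed limma's test of both siAkt1 libraries against siNT, among the 27 p53 pathway genes (0 of 27) or among all genes (0 of 12779). That test has 1 residual degree of freedom, and its spread is the gap between siAkt1-22 and siAkt1-58, with 1 library each. Differences between the siRNAs and noise cannot be told apart in that gap. Nothing says that the libraries were separate cultures, so its p-values cover the spread of these samples alone, which may also be technical. At an unadjusted p under 0.05 there were 2 p53 pathway genes, AEN and BTG1, against 954 genes in all (7.47%). AKT1 itself did not pass, although its brightest probe set lay 8.46-fold below siNT with siAkt1-22 and 9.71-fold with siAkt1-58. Not passing thus says little about a gene. The genes are therefore described by a rule of size, at least 2-fold from siNT, without a test. The siNT library is shared by the differences of both siRNAs. Each SD given below (n = 2) is the spread between different siRNAs, without replicates of either and without an error of siNT.

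GDF15 was at least 2-fold higher than siNT with both siRNAs, 1 of 27 genes, where 0.736% of all genes were. MDM2 was at least 2-fold lower with both, also 1 of 27 genes, where 1.17% of all genes were. Taking siAkt1-22 by itself, GDF15 and SESN2 were at least 2-fold higher (4.4% of all genes), and MDM2 and TNFRSF10A at least 2-fold lower (5.97% of all genes). Taking siAkt1-58 by itself, GDF15 was at least 2-fold higher (1.54% of all genes), and MDM2 and DDB2 at least 2-fold lower (3.58% of all genes). At 1.5-fold with both siRNAs, PHLDA3 and SESN2 joined GDF15 above siNT (3 of 27, against 3.2% of all genes), and TNFRSF10A joined MDM2 below it (2 of 27, against 3.58%). At 1.5-fold with siAkt1-22 by itself, 6 of the 27 were higher (12.3% of all genes) and 2 lower (12%). At 1.5-fold with siAkt1-58 by itself, 3 were higher (6.58% of all genes) and 5 lower (8.74%).

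The median difference of the 27 genes was 0.31 with siAkt1-22 and 0.02 with siAkt1-58, against 0 and 0 over all genes tested. Differences ran from -1.49 to 2.36 with siAkt1-22 and from -1.37 to 1.55 with siAkt1-58. Counting any difference over 0.01, 14 of the 27 genes were higher with both siRNAs (29.9% of all genes) and 6 were lower with both (20.8% of all genes). The remaining 7 were split or tied, as were 6305 of all 12779 genes. Values within 0.01 between some pair of libraries were found for 4 of the 27 and for 30.5% of all genes. Such ties lower the shares over all genes, so the counts and shares are not on equal terms.

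**Figure D1:**
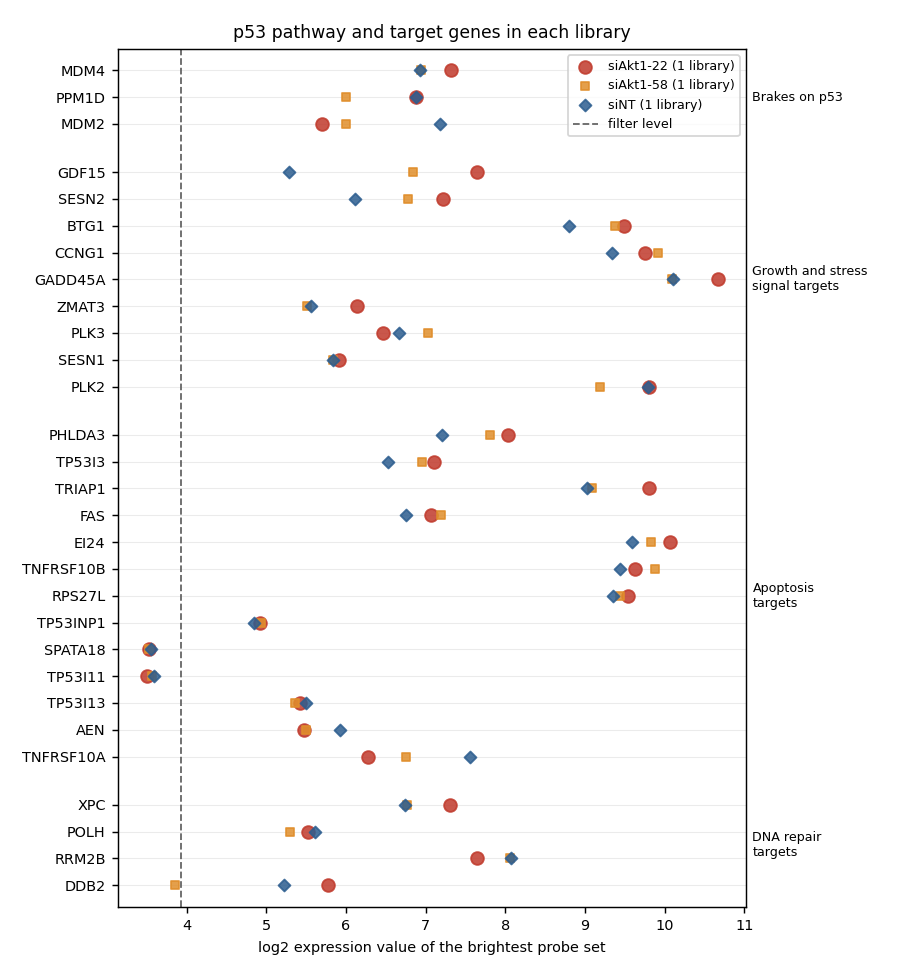
Log2 expression values (x axis) of the brightest probe set of the 29 genes with a probe set of their own (y axis, grouped by role), with 1 point per library for siAkt1-22, siAkt1-58 and siNT and the filter level of 3.93 as a dashed line. GDF15 sits at 7.65 and 6.84 in the siAkt1 libraries, against 5.29 with siNT, and MDM2 at 5.69 and 6.00, against 7.18.

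Promoter sequence was examined because p53 activates these genes through a DNA site of 20 bases, a pair of abutting decamers that each hold a CNNG core. RefSeq promoter windows (GRCh38.p14, from 250 bases before to 50 after a transcript start) were available for 25 of the 31 genes. They were searched for the p53 consensus with at most 3 mismatches and no spacer. The consensus is its own reverse complement, so 1 search covers both strands. Such a match was found for 9 of the 25 genes, and for 6.39% of all 27305 genes with a window. With at most 2 mismatches it was found for DDB2, AEN, FAS and MDM2, and for 0.820% of all genes. A match is a description of the letters and not a measured site. Since 28 of the 31 genes were listed because p53 is known to activate them, their higher share is not independent support. Bases outside the windows were not searched, so a gene without a match is not shown to lack a site. The matches of genes with expression values are shown 5′ to 3′ on the gene's strand, with bases that fit the consensus in capitals.
DDB2, chr11:47214969-47214988, plus strand, 1 mismatch: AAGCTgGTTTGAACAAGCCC
AEN, chr15:88621306-88621325, plus strand, 2 mismatches: GGGCTTGCCCGGGCATGTgg
FAS, chr10:88991309-88991328, plus strand, 2 mismatches: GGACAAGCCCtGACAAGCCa
MDM2, chr12:68808923-68808942, plus strand, 2 mismatches: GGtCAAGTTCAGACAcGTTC
MDM2, chr12:68808961-68808980, plus strand, 3 mismatches: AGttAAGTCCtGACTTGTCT
GDF15, chr19:18386186-18386205, plus strand, 3 mismatches: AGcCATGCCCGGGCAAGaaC
RPS27L, chr15:63157527-63157546, minus strand, 3 mismatches: GGcCTAGagCAGACAAGCCC
SESN1, chr6:109009018-109009037, minus strand, 3 mismatches: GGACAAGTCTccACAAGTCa
XPC, chr3:14178570-14178589, minus strand, 3 mismatches: GAAtTTGCCCAGACAAGCaa

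Among the genes that restrain p53, MDM2 was lower with both siRNAs. Its brightest probe set read 5.69 with siAkt1-22 and 6.00 with siAkt1-58, against 7.18 with siNT. Both siAkt1 libraries thus lay below the siNT library, 2.81-fold with siAkt1-22 and 2.26-fold with siAkt1-58. The mean difference was -1.33 ± 0.22 (SD, n = 2; limma, adjusted p = 0.663). MDM2 had 11 probe sets, 7 of them above the filter level, and all 7 read lower than siNT with both siRNAs. Their differences ran from -1.65 to -0.25 with siAkt1-22 and from -1.32 to -0.18 with siAkt1-58, so the size differed by probe set while the direction did not. With the mean of all 11 probe sets in place of the brightest, MDM2 was no longer 2-fold lower with either siRNA (-0.69 and -0.54).

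MDM2 is transcribed from 2 known promoters, and p53 acts on the downstream one, inside the gene. Both MDM2 matches lay before that downstream start, 94 and 56 bases upstream by their first base. The windows at the upstream starts of MDM2 held none with 3 mismatches or fewer. The 250 bases before the downstream start, chr12:68808767-68809016 on the plus strand of GRCh38.p14, are shown with both matches in capitals. MDM2 was chosen as the 1 gene of the 27 at least 2-fold lower with both siRNAs. A part of these matches in its values was not tested.
MDM2 downstream promoter: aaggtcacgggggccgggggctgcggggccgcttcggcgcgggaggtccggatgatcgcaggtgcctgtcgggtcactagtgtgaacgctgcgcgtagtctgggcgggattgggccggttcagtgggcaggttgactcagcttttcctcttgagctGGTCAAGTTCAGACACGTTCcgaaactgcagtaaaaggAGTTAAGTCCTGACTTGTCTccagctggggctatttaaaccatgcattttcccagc

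MDM4, which binds p53 and blocks its activity, read 7.31 with siAkt1-22 and 6.94 with siAkt1-58, against 6.93 with siNT. Only siAkt1-22 was set off from siNT, by 0.39, and the siAkt1-58 difference was 0.01. Its 6 probe sets, all above the filter level, ran from -0.17 to 0.41 with siAkt1-22 and from -0.08 to 0.13 with siAkt1-58. PPM1D, the phosphatase WIP1 that removes activating phosphates from p53 and its kinases, read 6.88 with siAkt1-22 and 6.01 with siAkt1-58, against 6.88 with siNT. Here siAkt1-58 was the lower library, by -0.87, and 4 of 4 PPM1D probe sets were lower with siAkt1-58, from -0.99 to -0.44. With siAkt1-22 they ran from -0.34 to 0.14.

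GDF15, a secreted TGF-beta family protein induced by p53 and by other stress pathways, had the highest mean difference of the 27 genes. It read 7.65 with siAkt1-22 and 6.84 with siAkt1-58, against 5.29 with siNT. Both siAkt1 libraries lay above siNT, 5.14-fold and 2.94-fold, and they were 0.81 apart from each other. The mean difference was 1.96 ± 0.57 (SD, n = 2; limma, adjusted p = 0.757). A further pair of probe sets, listed with the GDF15 symbol under more than 1 Entrez identifier and therefore not used for the gene, gave 2.50 and 1.97 with siAkt1-22 and 1.51 and 1.16 with siAkt1-58. The GDF15 promoter match began at base 29 of the transcript.

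SESN2, a sestrin that restrains mTORC1 and is induced by p53 and by amino acid shortage, read 7.22 with siAkt1-22 and 6.78 with siAkt1-58, against 6.11 with siNT. Both siAkt1 libraries were higher, by 1.11 and 0.67 (limma, adjusted p = 0.801), and the dimmer SESN2 probe set gave 1.02 and 0.70. Its relative SESN1, with 3 mismatches to the consensus in a promoter window, read 5.92 with siAkt1-22 and 5.84 with siAkt1-58, against 5.84 with siNT. The sestrins thus differed in these libraries, with SESN1 at 0.08 and 0.

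BTG1, an antiproliferative factor that promotes mRNA deadenylation, read 9.50 with siAkt1-22 and 9.38 with siAkt1-58, against 8.80 with siNT. It was higher by 0.69 and 0.57, and its second bright probe set gave 0.69 and 0.58. CCNG1, the cyclin G1 gene, whose product recruits a phosphatase to MDM2, read 9.76 with siAkt1-22 and 9.91 with siAkt1-58, against 9.34 with siNT. All 5 CCNG1 probe sets were higher with both siRNAs, from 0.41 to 0.57 with siAkt1-22 and from 0.52 to 0.61 with siAkt1-58.

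GADD45A and ZMAT3 were higher with siAkt1-22 alone. GADD45A, which acts in stress signalling and growth arrest, read 10.67 with siAkt1-22 and 10.10 with siAkt1-58, against 10.11 with siNT. ZMAT3, an RNA-binding p53 target, read 6.13 with siAkt1-22 and 5.51 with siAkt1-58, against 5.56 with siNT. The polo-like kinases PLK2 and PLK3 followed other orders. PLK2 read 9.80 with siAkt1-22 and 9.19 with siAkt1-58, against 9.80 with siNT, and its 4 probe sets gave -0.67 to -0.55 with siAkt1-58. PLK3 read 6.46 with siAkt1-22 and 7.03 with siAkt1-58, against 6.67 with siNT, so its siRNAs lay on opposite sides of siNT.

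**Figure D2:**
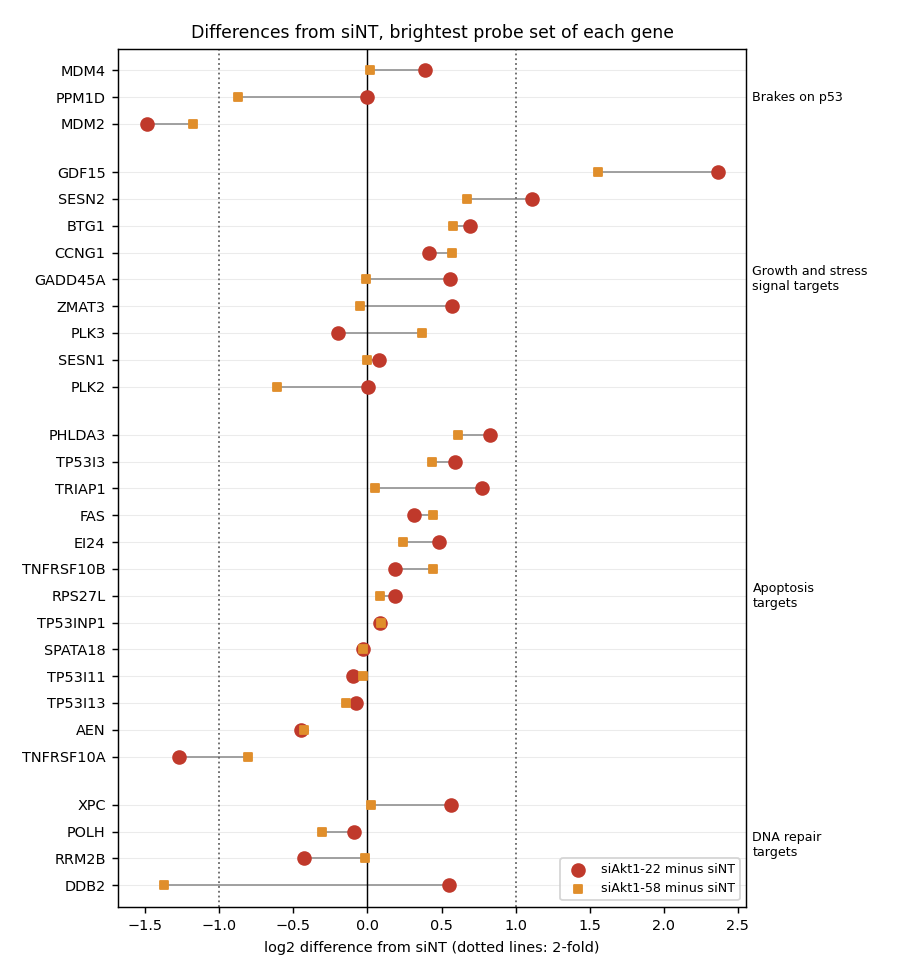
Log2 differences from siNT (x axis) of the 29 genes (y axis, grouped by role and ordered by mean difference), with circles for siAkt1-22, squares for siAkt1-58, a line joining them and dotted lines at 2-fold. GDF15 (2.36 and 1.55) and MDM2 (-1.49 and -1.18) lie past the dotted lines with both siRNAs, and DDB2 has the widest gap between the siRNAs (0.55 and -1.37).

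Among apoptosis targets, 11 were tested, with medians of 0.19 with siAkt1-22 and 0.09 with siAkt1-58. With both siRNAs, 8 of the 11 were higher by over 0.01 (29.9% of all genes) and 3 were lower (20.8% of all genes). The split or tied genes were 0 of the 11 and 6305 of all 12779, which lowers both shares over all genes. The exception in size was TNFRSF10A, the TRAIL death receptor DR4, which read 6.28 with siAkt1-22 and 6.75 with siAkt1-58, against 7.55 with siNT. It lay below siNT with both siRNAs, 2.42-fold and 1.75-fold (limma, adjusted p = 0.775), and was read by 1 probe set. TNFRSF10B, the TRAIL receptor DR5, read 9.63 with siAkt1-22 and 9.88 with siAkt1-58, against 9.44 with siNT. TNFRSF10A and TNFRSF10B therefore lay on opposite sides of siNT in their brightest probe sets, although dimmer TNFRSF10B probe sets gave 0 and 0, and 0.11 and -0.50. With averaged probe sets the TNFRSF10B difference changed sign with siAkt1-58 (-0.02).

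PHLDA3, a pleckstrin homology protein that competes with AKT for membrane lipids, read 8.03 with siAkt1-22 and 7.81 with siAkt1-58, against 7.20 with siNT. Its 3 probe sets were higher with both siRNAs, from 0.61 to 0.83 with siAkt1-22 and from 0.32 to 0.61 with siAkt1-58. TP53I3, a quinone oxidoreductase-like protein tied to oxidative stress, read 7.11 with siAkt1-22 and 6.96 with siAkt1-58, against 6.52 with siNT. FAS, the receptor for FAS ligand, read 7.07 with siAkt1-22 and 7.20 with siAkt1-58, against 6.75 with siNT, and a dimmer FAS probe set gave 0.49 and 1.09. These 3 genes were above siNT in both siAkt1 libraries, each by less than 2-fold in its brightest probe set.

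EI24, an endoplasmic reticulum protein, was higher in all 7 of its probe sets, by 0.40 to 0.49 with siAkt1-22 and by 0.17 to 0.24 with siAkt1-58. TRIAP1, which limits apoptosis by acting on mitochondrial lipid transfer, read 9.80 with siAkt1-22 and 9.08 with siAkt1-58, against 9.03 with siNT, so siAkt1-22 was the library set off. RPS27L, a ribosomal protein paralogue, read 9.54 with siAkt1-22 and 9.44 with siAkt1-58, against 9.35 with siNT. AEN, an exonuclease of apoptotic cells, read 5.47 with siAkt1-22 and 5.49 with siAkt1-58, against 5.92 with siNT. The siAkt1 libraries nearly coincided for AEN, at -0.45 and -0.43 (limma, adjusted p = 0.607).

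TP53INP1, a nuclear p53 partner that also acts in autophagy, read 4.93 in both siAkt1 libraries, against 4.84 with siNT, but its other probe set gave 0.92 with siAkt1-22 and -0.33 with siAkt1-58. TP53I13 read 5.42 with siAkt1-22 and 5.35 with siAkt1-58, against 5.50 with siNT. TP53I11, with 3.50, 3.57 and 3.59, and SPATA18, a mitochondrial quality control gene, with 3.53, 3.53 and 3.55, were below the filter level in siAkt1-22, siAkt1-58 and siNT.

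**Figure D3:**
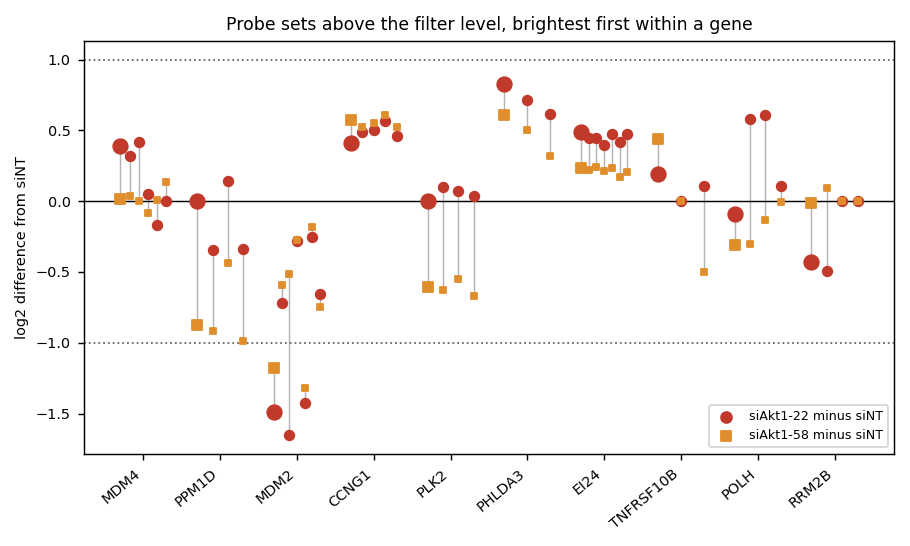
Log2 differences from siNT (y axis) of each probe set above the filter level, for the 10 genes with at least 3 such probe sets (x axis, brightest probe set first and drawn larger), with circles for siAkt1-22, squares for siAkt1-58 and dotted lines at 2-fold. The 7 MDM2 probe sets lie below 0 with both siRNAs, the 5 of CCNG1, 7 of EI24 and 3 of PHLDA3 lie above it, and POLH probe sets fall on both sides.

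The DNA repair targets had medians of 0.23 with siAkt1-22 and -0.16 with siAkt1-58 over 4 genes. DDB2, a subunit of the complex that recognises ultraviolet lesions, read 5.78 with siAkt1-22 and 3.85 with siAkt1-58, against 5.23 with siNT. Its siRNAs lay on opposite sides of siNT, at 0.55 and -1.37, and the siAkt1-58 value was below the filter level, so the lower fold there is limited by dim signal. A dimmer DDB2 probe set gave 0.23 and -0.65. DDB2 was the 1 gene of the 27 2-fold or more above its siAkt1-58 level with siAkt1-22 (1.92; 5% of all genes), and 0 of the 27 were 2-fold or more below it (5.28% of all genes).

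XPC, the damage sensor of nucleotide excision repair, read 7.31 with siAkt1-22 and 6.77 with siAkt1-58, against 6.74 with siNT. RRM2B, the p53-inducible ribonucleotide reductase subunit, read 7.64 with siAkt1-22 and 8.06 with siAkt1-58, against 8.07 with siNT. In the brightest probe sets of both genes siAkt1-58 nearly matched siNT, and siAkt1-22 was higher for XPC and lower for RRM2B. RRM2B had 4 probe sets above the filter level. The second brightest gave -0.50 with siAkt1-22 and 0.09 with siAkt1-58, and the dimmer ones gave 0 with both. With averaged probe sets the RRM2B difference with siAkt1-22 was -0.11. POLH, a translesion DNA polymerase, read 5.52 with siAkt1-22 and 5.30 with siAkt1-58, against 5.61 with siNT. Its other probe sets gave from 0.11 to 0.61 with siAkt1-22, so the direction with that siRNA depended on the probe set.

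Over the 27 genes tested, siAkt1-22 read higher than siAkt1-58 by over 0.01 in 18 (45.6% of all genes). The siAkt1 libraries were within 0.01 for 1 of the 27 and for 2318 of all 12779 genes, which lowers that share. At a limit of 1.5-fold from both other libraries, siAkt1-22 stood above them for GDF15 and TRIAP1 (2 of 27, against 6.1% of all genes) and below them for 0 of 27 (7.44% of all genes). The siAkt1-58 library stood below both others for DDB2, PLK2 and PPM1D (3 of 27, against 4.25% of all genes) and above them for 0 of 27 (2.06%). The genes with matches to the p53 consensus did not share a direction. MDM2 and AEN were lower with both siRNAs, GDF15, FAS, RPS27L and XPC were higher with both by over 0.01, and DDB2 was split. XPC passed that limit narrowly with siAkt1-58, at 0.02, and SESN1 had a difference of 0 there.

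The p53 family and upstream regulators were read from 19 of 21 listed genes, with medians of -0.28 with siAkt1-22 and 0.03 with siAkt1-58. TP63 was not analysed here. RCHY1, a ubiquitin ligase that targets p53, was the 1 gene of the 19 at least 2-fold from siNT in the same direction with both siRNAs, which was upward (0.736% of all genes). It read 7.55 with siAkt1-22 and 7.60 with siAkt1-58, against 6.42 with siNT (limma, adjusted p = 0.607). HIPK2, a kinase that phosphorylates p53 and was picked after its values were seen, read 5.57 with siAkt1-22 and 9.08 with siAkt1-58, against 8.63 with siNT. The siAkt1-22 library alone was low for HIPK2.

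Other p53 targets were read from 26 of 30 listed genes, with medians of 0 and 0. With both siRNAs, 0 were at least 2-fold higher and 1, KITLG, was at least 2-fold lower (1.17% of all genes). KITLG, the ligand of the KIT receptor, read 5.76 with siAkt1-22 and 5.25 with siAkt1-58, against 7.06 with siNT. CDKN1A, which encodes the CDK inhibitor p21 and is a classic p53 target, read 10.19 with siAkt1-22 and 9.86 with siAkt1-58, against 8.92 with siNT. It was above siNT in both siAkt1 libraries, 2.41-fold and 1.91-fold (limma, adjusted p = 0.691).

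Genes known to be lowered through p53, p21 and the DREAM repressor complex were read from 15 of 16 listed genes. The name of the list is background, and a part of p53 in their values here was not tested. Their medians were -0.50 with siAkt1-22 and -1.01 with siAkt1-58. Most of them, 12 of 15, read below siNT with both siRNAs by over 0.01, where 20.8% of all genes did. The split or tied genes were 3 of the 15 and 6305 of all 12779, which lowers that share. PLK4, the kinase of centriole duplication, was the 1 gene of the 15 at least 2-fold lower with both (1.17% of all genes), at 4.62 with siAkt1-22 and 5.34 with siAkt1-58, against 6.95 with siNT. A level 2-fold or more below siNT was found for 1 of the 15 with siAkt1-22 (5.97% of all genes) and for 8 with siAkt1-58 (3.58% of all genes). In both this list and the 27 p53 pathway genes the median was higher with siAkt1-22 than with siAkt1-58. The median lay farther from siNT with siAkt1-58 in this list and with siAkt1-22 in the p53 pathway genes, and neither difference was tested.

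**Figure D4:**
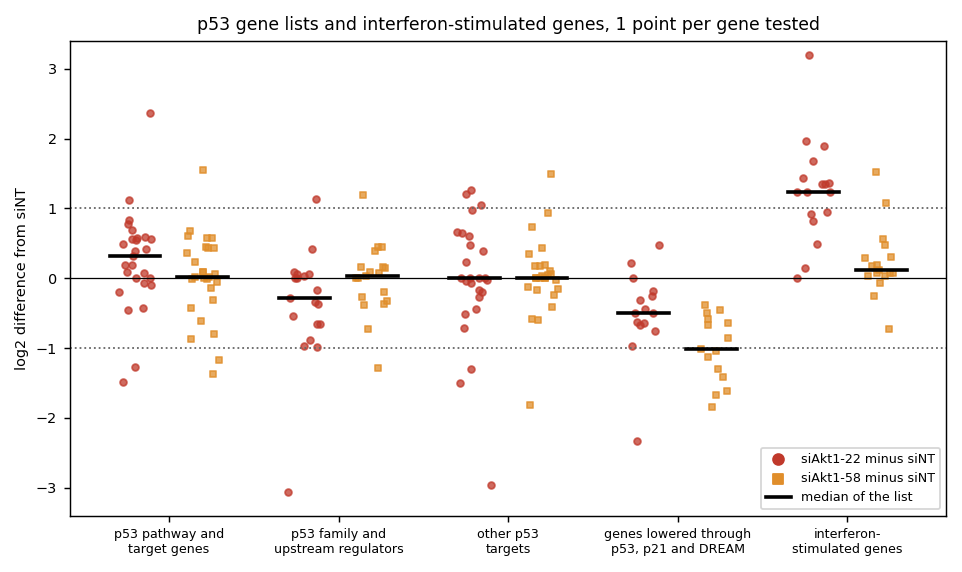
Log2 differences from siNT (y axis) of the genes tested in each list (x axis), 1 point per gene, with circles for siAkt1-22, squares for siAkt1-58, bars at the list medians and dotted lines at 2-fold. The p53 pathway and target genes have medians of 0.31 and 0.02, the genes lowered through p53, p21 and DREAM -0.50 and -1.01, and the interferon-stimulated genes 1.24 and 0.12.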

How the data were processed

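Expression was measured in 3 libraries of 1 human cell line from 10 ng of labelled total RNA. Each deposited value is the authors' log2 expression value of a probe set. The submitters' processing notes name RMA, with no version. The log2 scale was read from the values. Array batches are not given in these sources. RMA often returns tied values: 30.5% of genes tested and 4 of the 27 members lay within 0.01 between some pair of libraries.

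Of 49386 probe sets, 45253 carried 1 gene symbol, 1327 several and 2713 none in the platform annotation, and 93 were controls. Symbols were updated through Entrez identifiers for 45172. The brightest probe set stood for each of 18239 genes, and genes whose mean reached the 30th percentile (log2 3.93) entered the test. The labels give both siAkt1 libraries the same genotype, so they formed 1 group against siNT in limma 3.58.1 (R 4.3.3, two-sided, Benjamini-Hochberg over all genes, threshold 0.05). That assumes the single siNT library varies like the siAkt1 libraries. The steps were also run on simulated data, but the outcome is not given here, so no conclusion is drawn from that run. Alternatives were averaged probe sets, median centring, quantile normalization, other filters, 1.5-fold, other eBayes settings and leaving out each siAkt1 library.

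Members and lists were chosen with earlier results of these data known. All members are named. Of the other lists, genes at least 2-fold from siNT in 1 direction with both siRNAs are named, up to 4 a list, with CDKN1A in any case. HIPK2 is named outside this rule. Promoter sequences are from RefSeq (GRCh38.p14).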

Additional observations from a re-analysis of the deposited data

Results flagged for a closer look

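Values were also present in probe sets that the comparisons by gene did not use. A pair of GDF15 probe sets, listed with that symbol under more than 1 Entrez identifier, read above siNT with both siRNAs. One gave a difference of 2.50 with siAkt1-22 and 1.51 with siAkt1-58, and the other gave 1.97 and 1.16. The GDF15 probe set used for the gene gave 2.36 and 1.55.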

How the results depend on the processing

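The counts of genes at least 2-fold from siNT stayed as reported with median-centred or quantile-normalized arrays, and without a filter, and those with both siRNAs also without tied genes (an alternative added after seeing the data). With averaged probe sets, 0 genes were lower with both siRNAs, 1 was lower with siAkt1-22 and 1 with siAkt1-58, since MDM2 no longer passed. With the 50th percentile filter 1 was lower with siAkt1-58, as DDB2 was no longer tested. Shares over all genes with averaged probe sets or the 50th percentile filter are not given here, so those counts cannot be set against them. With 1.5-fold in place of 2-fold, 3 were higher (3.2% of all genes) and 2 lower (3.58%) with both. At that limit 6 were higher with siAkt1-22 (12.3% of all genes), and 3 were higher (6.58%) and 5 lower (8.74%) with siAkt1-58. Leaving out 1 siAkt1 library leaves the counts and medians of the other siRNA by itself, as given above, and is not a separate check. It gave 1 to 2 genes higher and 2 lower each time, and medians of the mean difference from 0.02 to 0.31 (0.20 as reported). With siAkt1-22 kept, 4.4% of all genes were higher and 5.97% lower, and with siAkt1-58 kept, 1.54% and 3.58%. Across the other settings the median ran from 0.09 to 0.26. Limma passed 0 of the members under every setting. Of 39 differences of 0.1 or more, 1 changed sign with averaged probe sets (TNFRSF10B with siAkt1-58) and 0 with median centring or quantile normalization. Smaller differences changed sign as well. With averaged probe sets POLH went from -0.09 to 0.30 with siAkt1-22, and TP53INP1 from 0.09 to -0.12 with siAkt1-58. TP53INP1 is counted above as higher with both siRNAs, which thus depended on the probe set. No paired analysis was possible because siNT had 1 library and the labels give no replicate numbers. With 3 libraries and 1 control, no difference has an error of its own in siNT, and values near the filter level understate differences.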
